A study of Homo sapiens with 2 samples.

Results

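The clustered protocadherins are cell-surface adhesion receptors of the cadherin superfamily whose genes lie in tandem in the alpha, beta and gamma clusters on chromosome 5. The genes described here are all protein-coding genes on chromosome 5 whose GENCODE version 44 symbol is PCDHA, PCDHB, PCDHGA, PCDHGB, PCDHAC or PCDHGC followed by a number. This rule, which used no measured value, found 53 genes among the 60554 genes of the count tables, 15 in the alpha cluster, 16 in the beta cluster and 22 in the gamma cluster. All 53 symbols that the annotation holds had a row in the files. In hg38 the alpha cluster spans chr5:140786136-141012347, the beta cluster chr5:141051374-141249365 and the gamma cluster chr5:141330514-141512977, all on the plus strand.

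Cells of the line SH-SY5Y were fractionated, and the RNA left on their chromatin, much of it nascent, was sequenced. SH-SY5Y is an established human neuroblastoma line, and the cells carried no genetic modification. There were 2 replicate libraries of this 1 condition, so no groups were compared, and every comparison below is between genes, between strands or between the 2 libraries. The labels do not say if separate cultures were used, and each SD measures only the spread between these 2 libraries. Replicate 1 held 4155210 counts of read pairs on the sense strand of genes and replicate 2 held 3425309. These were 18.5% and 17.5% of the uniquely mapped pairs, while 79.4% and 80.7% overlapped no exon on the sense strand. The latter include pairs that lay in exons only on the opposite strand. All 6 markers of adrenergic neuroblasts (GATA2, GATA3, HAND2, ISL1, TFAP2B and ELAVL4) averaged at least 10 counts, with a median of 383 counts per 1000000 counts in genes (CPM). None of the markers of Schwann cells (0 of 3), astrocytes (0 of 2), leukocytes (0 of 3) or endothelium (0 of 2) reached this limit, and their summed count was 2 in replicate 1 and 0 in replicate 2.

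In neurons each cell uses its own small set of clustered protocadherins, chosen largely at random promoter by promoter, and the resulting combination of proteins lets branches of the same cell recognise and avoid each other. In the alpha and gamma clusters each gene has its own promoter and a large variable exon, which is spliced to constant exons that all genes of the cluster share, whereas beta genes consist of a single coding exon. The alternate promoters carry a conserved sequence element with the core CGCT and are bound by CTCF, which together with cohesin joins a promoter to distant enhancers. The C-type genes at the ends of the alpha and gamma clusters are regulated differently and are used more evenly between cells. In bulk RNA, fewer cells that use a promoter and less RNA per cell cannot be told apart, so the values below are sums over all cells of a library.

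The promoters are shown first because promoter choice sets which gene of a cluster is transcribed. RefSeq promoters on GRCh38.p14, which hold 250 bases before and 50 bases after the start of a gene, were found for 47 of the 53 genes (13 alpha, 14 beta and 20 gamma), all but PCDHA3, PCDHA13, PCDHB6, PCDHB11, PCDHGA12 and PCDHGC5. CGCT, searched on both strands, occurred in 46 of these 47 (97.9%), against 70.0% of all 35116 promoters of the same length, and PCDHA9 was the gene without it. Around this core each cluster had its own most shared run of 7 bases, picked after the promoters had been read. TGTCGCT occurred in 10 of 13 alpha promoters, against 1.76% of all promoters, TGGCGCT in 13 of 14 beta promoters, against 4.08% of all promoters, and CGCTGTT in 13 of 20 gamma promoters, against 2.26% of all promoters. The run of 8 bases that most member promoters shared, AGCGCCAC, overlaps TGGCGCT when read on the other strand and occurred in 13 promoters, all of them beta, against 1.15% of all promoters. A match is a description of the letters in this window. All motifs were searched on both strands. The stretches shown next lie at chr5:140786089-140786118 (PCDHA1), chr5:140794784-140794813 (PCDHA2), chr5:140806982-140807011 (PCDHA4), chr5:140875247-140875276 (PCDHA12), chr5:141094547-141094576 (PCDHB2), chr5:141100396-141100425 (PCDHB3), chr5:141223266-141223295 (PCDHB14), chr5:141343770-141343799 (PCDHGA3), chr5:141373838-141373867 (PCDHGA6) and chr5:141382652-141382681 (PCDHGA7). The following stretches of 30 bases from the plus strand of chromosome 5 show this element, with the core in capitals, for genes at low and at high levels in each cluster.
PCDHA1: ggccacatgatgtCGCTgtacaccacaaag
PCDHA2: agccacatgatgtCGCTgtccaccatagag
PCDHA4: agccacatgatgtCGCTctttaccacaaaa
PCDHA12: agtcacatgatgtCGCTctacactcagaag
PCDHB2: agacgcggggtggCGCTgcagccttagaag
PCDHB3: gaacgcatggtggCGCTgttgactaagaag
PCDHB14: agacacatggtggCGCTacaggataagacg
PCDHGA3: ggcctcttagtgtCGCTgttgaccactcaa
PCDHGA6: ggactctaagcgtCGCTgttgaccaacctg
PCDHGA7: ggactcacagcgcCGCTgttcaccaaccag

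The same 7 bases stood before genes with very different levels. PCDHA2, with 1 and 2 sense counts, and PCDHA4, with 142 and 98, have identical letters in these stretches up to the end of the core. The letters after the core differ between them. In the alpha promoters with TGTCGCT the core began 38 to 81 bases before the annotated start (median 51.5), and the genes ranged in level between 0.157 and 7.10 CPM per kb (median 2.85, n = 10). The 3 alpha promoters without it belonged to PCDHA9 and to the C-type genes PCDHAC1 and PCDHAC2, at 2.53, 5.25 and 16.2 CPM per kb. Likewise, the gamma genes with CGCTGTT spanned 0.188 to 14.0 CPM per kb (median 2.73, n = 13), and the 7 gamma genes without it spanned 1.28 to 10.8 (median 7.56). Those without it were PCDHGB1, PCDHGB3, PCDHGB6, PCDHGB7, PCDHGA11 and the C-type genes PCDHGC3 and PCDHGC4. These groups thus also differ in gene type and in position along the cluster. In the beta cluster PCDHB1, the gene with no sense count, was the gene without TGGCGCT, and the 13 beta genes with it spanned 0.325 to 10.5 CPM per kb (median 3.12). Only exact matches of the 7 bases were counted, and apart from PCDHA9 the promoters without such a match still held CGCT. All levels in this paragraph are given as a description, and no test was made of them. In the alpha and gamma clusters they can include unspliced RNA of upstream genes, so a level need not reflect the gene's own promoter. The full promoters of 6 of these genes follow, those of PCDHA2 (chr5:140794602-140794901), PCDHA4 (chr5:140806818-140807117), PCDHAC2 (chr5:140966226-140966525), PCDHB1 (chr5:141051124-141051423), PCDHGA3 (chr5:141343579-141343878) and PCDHGA7 (chr5:141382492-141382791), with every CGCT on the plus strand in capitals.
PCDHA2: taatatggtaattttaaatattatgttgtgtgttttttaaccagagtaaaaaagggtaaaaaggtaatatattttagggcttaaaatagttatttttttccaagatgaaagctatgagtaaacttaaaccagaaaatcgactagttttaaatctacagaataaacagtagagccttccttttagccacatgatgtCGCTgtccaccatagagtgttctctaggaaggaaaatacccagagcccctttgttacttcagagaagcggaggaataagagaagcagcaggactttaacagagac
PCDHA4: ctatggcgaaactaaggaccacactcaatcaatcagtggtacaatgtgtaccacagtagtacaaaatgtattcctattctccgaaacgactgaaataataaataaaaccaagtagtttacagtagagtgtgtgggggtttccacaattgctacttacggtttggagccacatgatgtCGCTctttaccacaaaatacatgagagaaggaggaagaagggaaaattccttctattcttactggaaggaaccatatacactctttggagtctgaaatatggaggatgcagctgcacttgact
PCDHAC2: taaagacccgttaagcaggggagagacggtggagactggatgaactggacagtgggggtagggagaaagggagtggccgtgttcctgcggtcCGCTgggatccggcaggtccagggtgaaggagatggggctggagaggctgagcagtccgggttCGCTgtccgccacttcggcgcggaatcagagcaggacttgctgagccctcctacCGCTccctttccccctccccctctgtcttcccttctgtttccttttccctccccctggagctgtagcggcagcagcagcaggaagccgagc
PCDHB1: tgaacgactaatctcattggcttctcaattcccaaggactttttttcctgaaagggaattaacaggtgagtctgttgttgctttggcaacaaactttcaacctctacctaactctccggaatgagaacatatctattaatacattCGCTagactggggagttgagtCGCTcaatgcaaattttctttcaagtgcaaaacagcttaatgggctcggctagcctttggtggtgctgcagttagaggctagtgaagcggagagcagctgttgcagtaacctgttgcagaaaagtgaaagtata
PCDHGA3: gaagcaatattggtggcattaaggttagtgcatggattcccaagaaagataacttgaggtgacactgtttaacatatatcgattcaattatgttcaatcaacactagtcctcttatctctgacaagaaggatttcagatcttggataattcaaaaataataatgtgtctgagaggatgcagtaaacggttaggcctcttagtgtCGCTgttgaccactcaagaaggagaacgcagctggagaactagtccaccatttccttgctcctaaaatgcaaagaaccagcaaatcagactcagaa
PCDHGA7: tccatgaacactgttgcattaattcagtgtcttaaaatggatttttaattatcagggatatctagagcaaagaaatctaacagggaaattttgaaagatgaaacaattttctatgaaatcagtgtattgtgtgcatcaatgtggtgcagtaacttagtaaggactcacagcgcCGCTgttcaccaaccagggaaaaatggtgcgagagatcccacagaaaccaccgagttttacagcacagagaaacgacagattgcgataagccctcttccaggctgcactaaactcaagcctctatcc

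Chromatin RNA was found at nearly all clustered protocadherins, and few of them had high counts. At least 10 counts on average over the 2 libraries were found for 47 of the 53 genes (88.7%), against 59.3% of the 19533 other protein-coding genes. By cluster these were 12 of 15 alpha, 14 of 16 beta and 21 of 22 gamma genes. At least 100 counts on average were found for 8 of the 53 genes (15.1%), against 34.8% of the other protein-coding genes. The median level was 13.3 CPM (quartiles 6.58 and 21.8, highest 53.2) for the clustered protocadherins and 8.57 CPM (quartiles 0.120 and 46.0) for the other protein-coding genes. Thus the middle of the family lay above the middle of other coding genes, while its upper quartile lay below theirs. A count of 0 in both libraries, seen for PCDHB1, allows a level of up to 0.396 CPM, and this bound, like the intervals below, covers counting error only.

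Together the 53 genes held 3426 counts in replicate 1 and 2647 in replicate 2, or 825 and 773 CPM, which was 0.0801% of all counts in genes over both libraries. The gamma cluster held 42.6% of the family's counts (exact binomial 95% interval 41.4 to 43.9), the alpha cluster 29.4% (28.3 to 30.6) and the beta cluster 27.9% (26.8 to 29.1). The gamma cluster also holds the most genes, 22 of the 53. In each library alone the gamma share was 42.2% and 43.1%, and the order of the alpha and beta shares turned between the libraries, at 30.5% and 27.3% in replicate 1 and 28.1% and 28.8% in replicate 2. Levels of different genes were compared as CPM per kb of the exon sequence that belongs to 1 gene, because read pairs in exons shared by several genes are in no gene's count. The median was 3.12 CPM per kb for the 53 genes, against 2.15 for other protein-coding genes. It was 2.89 for alpha, 3.47 for beta and 4.27 for gamma genes. Per kb of coding segment the medians were 5.84, 5.25 and 5.49 for alpha, beta and gamma genes, so the order of the clusters depends on the length used and none is given here.

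In the alpha cluster the first 3 genes were nearly silent on the sense strand and the last gene was the highest of the family. PCDHA1 had 4 and 3 counts, PCDHA2 had 1 and 2, and PCDHA3 had 1 and 2 in replicates 1 and 2, or 0.337, 0.157 and 0.102 CPM per kb. The next 10 genes, PCDHA4 to PCDHA13, all had a mean count of at least 10, with levels between 2.21 and 7.10 CPM per kb (median 2.93). This division was seen in the values and is a description. The 7 genes from PCDHA4 to PCDHA10 had mean levels between 2.21 CPM per kb at PCDHA10 and 3.10 at PCDHA6, whose values were 4.05 and 2.14 in replicates 1 and 2. Per kb of coding segment the same 7 genes ran from 2.69 CPM at PCDHA8 to 13.1 at PCDHA4.

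Per kb of gene-specific exon, the 5 highest levels of the cluster were at its downstream end. Per kb of coding segment, PCDHA4 at 13.1 CPM and PCDHA10 at 9.05 came next after PCDHAC2 at 20.1. PCDHAC2, which in mouse is needed for the even spacing of serotonergic axons, had 241 and 166 counts, or 16.2 ± 2.05 CPM per kb (SD, n = 2). This was the highest level of all 53 genes in both libraries. PCDHA12 followed with 92 and 50 counts (7.10 ± 2.06 CPM per kb), with more counts in replicate 1. PCDHA13 had 68 and 53 counts (6.19 ± 0.245 CPM per kb) and PCDHAC1, the other C-type gene of the cluster, had 96 and 70 (5.25 ± 0.455 CPM per kb). PCDHA11 had 61 and 47 counts, or 4.23 ± 0.202 CPM per kb. All of these are alternative first parts of the same receptor type, with the cytoplasmic end given by the alpha constant exons.

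In the beta cluster the upstream pair was low or silent and the third gene was the highest. PCDHB1 had no sense count in either library and PCDHB2 had 5 and 5, or 0.325 CPM per kb. The other 14 beta genes all averaged at least 10 counts and lay between 1.74 and 10.5 CPM per kb (median 3.82). PCDHB3 had 167 and 104 counts (10.5 ± 2.07 CPM per kb), although it begins less than 2 kb downstream of the end of PCDHB2. PCDHB14 had 130 and 115 counts (7.63 ± 0.381 CPM per kb) and PCDHB4 had 104 and 92 (6.82 ± 0.340 CPM per kb). PCDHB5, with 67 and 51 counts (4.55 ± 0.256 CPM per kb), and PCDHB10, with 52 and 53 (4.25 ± 0.635 CPM per kb), completed the 5 highest. The beta proteins have no shared constant end, and each beta gene has its own promoter. In the annotation, 5 of the 16 beta genes share some exon sequence with another gene. The levels stepped down from PCDHB3 to PCDHB7, at 1.74 CPM per kb, and PCDHB13, directly upstream of PCDHB14, was at 2.13 CPM per kb.

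In the gamma cluster the 8 genes from PCDHGA1 to PCDHGB3 were low and the 11 genes from PCDHGA6 to PCDHGA12 were higher. The upstream genes lay between 0.188 and 2.73 CPM per kb (median 1.21), and PCDHGA3, with 3 and 1 counts, was the lowest of the cluster. The downstream genes lay between 1.93 and 14.0 CPM per kb (median 5.39). This division too was seen in the values. PCDHGA7 had 185 and 160 counts, or 14.0 ± 0.474 CPM per kb, the second highest level of the family. PCDHGB7 had 145 and 87 counts (10.8 ± 2.41 CPM per kb), with more counts in replicate 1, and PCDHGB4 had 86 and 77 (8.78 ± 0.513 CPM per kb). PCDHGA6, directly upstream of PCDHGA7, had 45 and 39 counts over a much longer annotated exon, or 1.93 CPM per kb. Neighbouring genes of the gamma cluster thus differed by several fold, with 2 genes of the A type standing side by side at 1.93 and 14.0 CPM per kb.

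The C-type genes, of which the gamma cluster holds 3, were all detected. PCDHGC3, which in mouse promotes the branching of cortical dendrites, had 143 and 110 counts (10.2 ± 0.500 CPM per kb). PCDHGC4, which in mouse is needed for the survival of interneurons, had 101 and 66 counts (7.80 ± 1.28 CPM per kb). PCDHGC5 had 58 and 53 counts, or 5.17 ± 0.376 CPM per kb. Over both clusters the 5 C-type genes had a median of 7.80 CPM per kb (5.17 to 16.2), against 2.82 for the 13 alternate alpha genes, 3.81 for the 12 A-type gamma genes, 3.13 for the 7 B-type gamma genes and 3.47 for the 16 beta genes. The ranges overlapped, because PCDHA12, PCDHGA7 and PCDHGB7, for example, lay above PCDHGC5. The C-type genes are also the last genes of their clusters, so type and position cannot be told apart here. Of the alternate genes upstream of them, PCDHA11, PCDHA12 and PCDHA13 were at 4.23, 7.10 and 6.19 CPM per kb. PCDHGA6 to PCDHGA12 had a median of 5.39 (1.93 to 14.0).

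**Figure D1:**
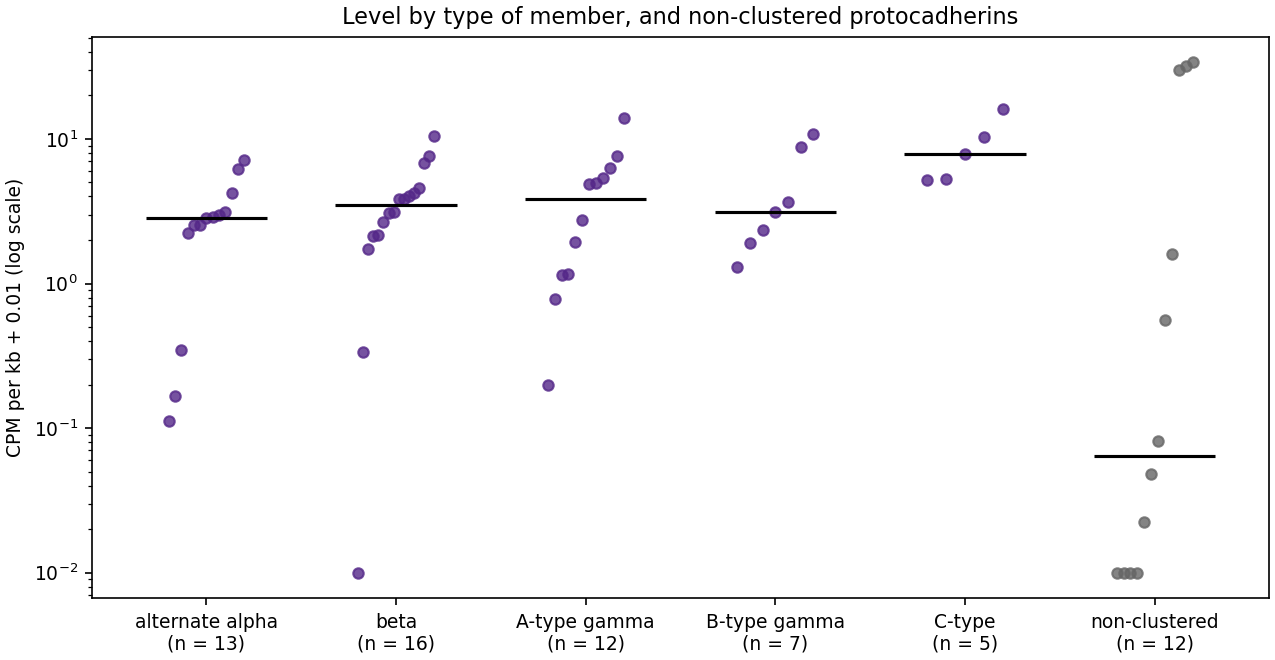
Level of each gene as CPM per kb of gene-specific exon plus 0.01 on a log axis, by type of gene, with a black line at the median of each type. Points are means of the 2 libraries, 1 point per gene. The C-type genes lie between 5.17 and 16.2, the alternate types run down to the gene without a count at the bottom of the axis, and the non-clustered protocadherins split into 3 high genes and 9 that are lower.

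Levels were related to position in the alpha and gamma clusters, given here as a description across genes, which are not independent replicates. From the first to the last gene along the chromosome, Spearman's rho between position and CPM per kb was 0.786 in the alpha cluster (n = 15) and 0.745 in the gamma cluster (n = 22). Without the C-type genes it was 0.687 (n = 13) and 0.765 (n = 19). In the beta cluster it was 0.132 (n = 16), and with the genes under a mean count of 10 left out it was -0.297. All genes of a cluster come from the same libraries. In the alpha and gamma clusters the number of upstream genes whose annotated transcripts run across an exon rises with position by construction, up to 14 for PCDHAC2 and 21 for PCDHGC5. Chromatin RNA contains unspliced precursors, so counts from a gene's own promoter and from unspliced transcripts of genes upstream cannot be told apart at these exons. No member spans a beta gene downstream of it. Other annotated genes on the plus strand do link beta genes, ENSG00000279068 from PCDHB16 into PCDHB9 and ENSG00000279983 from PCDHB14 into PCDHB15. If RNA of such genes adds to beta counts was not tested.

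The 53 levels were put in order, and the intervals of neighbours in this order mostly overlapped. Sorting itself places close levels side by side, so the overlap does not show that the genes are equal. Of the 52 pairs next to each other in the order, 1 pair had exact Poisson intervals that did not overlap, PCDHGA7 above PCDHGB7. With both libraries together they were at 14.0 CPM per kb (12.52 to 15.5) and 11.0 (9.62 to 12.50), so the gap was narrow. In replicate 1 their levels were 13.6 and 12.5, and in replicate 2 they were 14.3 and 9.12. The order began with PCDHAC2, PCDHGA7, PCDHGB7, PCDHB3, PCDHGC3 and PCDHGB4, so all 3 clusters were among the highest. It ended with PCDHGA2, PCDHA1, PCDHB2, PCDHGA3, PCDHA2, PCDHA3 and PCDHB1.

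The length that divides the counts matters for a few genes. The gene-specific exon sequence ranged between 2.459 and 10.557 kb, and 4 genes exceeded 6 kb of it. The coding segment, here the longest coding stretch within an exon of the gene, ranged between 2.328 and 2.652 kb. It includes the part that encodes the extracellular domains. PCDHA4 had 142 and 98 counts over 10.557 kb, so its level was 2.97 CPM per kb of gene-specific exon and 13.1 per kb of coding segment. PCDHA10 had 86 and 86 counts over 10.355 kb, giving 2.21 and 9.05. PCDHA9 had 76 and 57 counts over 6.9 kb, giving 2.53 and 6.91. All 3 stand higher within the alpha cluster per kb of coding segment than per kb of gene-specific exon, and PCDHAC2 was the highest of the family by both, at 20.1 CPM per kb of coding segment. The lengths come from version 44 of the annotation, and 50 of the 53 genes carry another version number in the files, so lengths are approximate.

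Some protocadherins are near copies of each other, and read pairs that fit several places are in no gene's count. Over 5% of the runs of 75 bases, the read length before trimming, occurred at more than 1 place in the protocadherin locus in 26 genes. These were 4 alpha, 15 beta and 7 gamma genes. The highest share was 34.3% in PCDHB8, which had 32 and 27 counts, and the counts of such genes can be too low by an unknown part. Reads were trimmed before mapping and mapped as pairs, so this share only approximates the part that could not be placed. Across the 53 genes Spearman's rho between the level and this share was -0.148.

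The strand-specific libraries also showed RNA from the strand opposite to the genes, and most of it lay in the alpha cluster. The 53 genes had 299 and 210 counts on the opposite strand, 509 together, against 6073 on the sense strand. The alpha cluster held 441 of these 509 (86.6%, exact binomial 95% interval 83.4 to 89.5), the beta cluster 58 and the gamma cluster 10. In the alpha cluster 19.8% of the counts of both strands were opposite, in the beta cluster 3.31% and in the gamma cluster 0.385%. There was no opposite count at 24 of the 53 genes, 15 of them gamma genes.

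The opposite strand RNA was highest at PCDHA3 and PCDHA2, where the sense RNA was almost absent. PCDHA3 had 1 and 2 counts on the sense strand and 71 and 63 on the opposite strand. PCDHA2 had 1 and 2 counts on the sense strand and 51 and 24 on the opposite strand. These neighbours alone held 209 opposite counts (41.1% of the family's), at 40.8% in replicate 1 and 41.4% in replicate 2, and 97.2% of their own counts were opposite (94.0 to 99.0). More counts on the opposite than on the sense strand were found at 2 of the 51 genes with at least 10 counts over both strands, against 12.0% of the other protein-coding genes with as many counts, a share that did not exceed the background. Other genes with few sense counts had little opposite RNA, with 4 and 0 opposite counts at PCDHA1 and none at PCDHB2 and PCDHGA3. PCDHB1 had a single opposite count and no sense count. The median share on the sense strand was 99.5% for the clustered protocadherins and 98.8% for other protein-coding genes.

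Further along the alpha cluster both strands were seen at the same genes. The opposite counts were 36 and 32 at PCDHA4, 31 and 24 at PCDHA10, 41 and 12 at PCDHA11, and 11 and 4 at PCDHA12. From PCDHA13 on they were 0 in both libraries, also at PCDHAC1 and PCDHAC2, where the sense counts were high. In the beta cluster PCDHB15 had 7 and 23 opposite counts and PCDHB12 had 10 and 1, and no gamma gene had more than 4 over both libraries. At PCDHA11, PCDHB12 and PCDHB15 the libraries differed in opposite counts by several fold, and these differences were not tested.

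The annotated genes on the minus strand inside the clusters were mostly without counts of their own. Of 13 such lncRNA genes, 9 had no count on their own strand, and 1 had a mean count of at least 10. This was ENSG00000279726, which runs on the minus strand between positions 140785698 and 140828549, beyond the start of PCDHA1 by 438 bases. It had 15 and 19 counts, and its exons overlap those of PCDHA1, PCDHA3, PCDHA5 and PCDHA6 but not those of PCDHA2. A read pair on the minus strand in such an overlap is counted for the lncRNA on its own strand and for the protocadherin as opposite, so these 2 values share read pairs.

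The 2 libraries gave similar levels for the family. Over the 53 genes Pearson's r between their log2(CPM per kb + 0.1) values was 0.967 and Spearman's rho 0.951, a description of agreement across genes of the same 2 libraries. By an exact binomial test, two-sided, of the count in replicate 1 given the sum, with Benjamini-Hochberg adjustment over all genes, 0 of the 48 testable protocadherins differed between the libraries, against 5.91% of the 17310 genes tested. The median of the mean counts was 50.5 over the 53 genes, so the test could miss moderate differences. By the same test an unadjusted p under 0.05 was found for 6 of the 48, against 16.8% of all genes tested. These were PCDHA6, PCDHA12, PCDHB3, PCDHB12, PCDHGB3 and PCDHGB7, all higher in replicate 1. PCDHGB3 was the most uneven, with 30 and 9 counts (adjusted p = 0.0776 in the exact test). On unstranded counts the exact binomial test called PCDHB12, with 86 and 40 counts (adjusted p = 0.0493 over all genes). The test compares these libraries and not conditions.

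The factors known to control clustered protocadherin promoters were all present in chromatin RNA. All 14 listed regulators averaged at least 10 counts, against 59.3% of the protein-coding genes that are not clustered protocadherins, and their median was 159 CPM, against 8.57 CPM. SMCHD1, which in mouse silences clustered protocadherins, was the highest with 2268 and 2222 counts (597 ± 72.7 CPM), and NIPBL, which loads cohesin, had 1479 and 1320 (371 ± 20.8 CPM). STAG2, a cohesin subunit, had 816 and 713 counts (202 ± 8.33 CPM). The lowest were DNMT3B, a DNA methyltransferase, with 68 and 37 counts (13.6 ± 3.93 CPM), CTCF with 104 and 74 (23.3 ± 2.42 CPM) and WIZ, a zinc finger partner of histone methyltransferases, with 145 and 82 (29.4 ± 7.75 CPM). These levels are per gene and not per length, and they do not measure protein.

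Genes that act with or on the protocadherin proteins were likewise all detected. All 13 averaged at least 10 counts, with a median of 92.7 CPM, against the same background of 59.3% and 8.57 CPM. RET, a receptor tyrosine kinase that binds alpha and gamma protocadherins in mouse, had 2223 and 1484 counts (484 ± 71.9 CPM), NCKAP1 of the WAVE complex had 1148 and 1001 (284 ± 11.3 CPM) and ADAM10, the protease that sheds protocadherins, had 864 and 780 (218 ± 14.0 CPM). PTK2B, a kinase that the cytoplasmic ends of protocadherins inhibit, was the lowest with 102 and 91 counts (25.6 ± 1.43 CPM), followed by AXIN1 with 196 and 108 (39.3 ± 11.1 CPM) and ABI1 with 233 and 207 (58.3 ± 3.08 CPM).

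The non-clustered protocadherins are single genes elsewhere in the genome. Of 12 genes, 5 averaged at least 10 counts and 4 had no sense count (PCDH8, PCDH11X, PCDH12 and PCDH20). Among other protein-coding genes 59.3% averaged at least 10 counts and 4879 of 19533 had no sense count, and no difference from these shares was tested. PCDH9 had 3843 and 4019 counts (33.9 CPM per kb), PCDH18 had 900 and 731 (32.2 CPM per kb) and PCDH17 had 1194 and 743 (30.0 CPM per kb). Each of these 3 genes thus lay above PCDHAC2, the highest clustered gene, at 16.2 CPM per kb.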

How the data were processed

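Chromatin RNA was measured in 2 replicate libraries of SH-SY5Y cells. The libraries were directional, carried molecular identifiers and were read from both ends. The authors extracted the identifiers with UMI-tools, removed spike-in and rRNA reads with Bowtie, mapped with STAR, removed PCR duplicates and mapped again. Versions, STAR options and the gene annotation were not stated in these sources, and the build is hg38 by the submitters' processing notes. The authors deposited the raw, not normalized counts that STAR gives for each gene, in 1 unstranded column and in columns for each strand. Rows that name no gene made up 82.4% and 83.4% of the file totals and stayed out of library sizes and tests. They hold pairs unmapped, mapping to several places, in no exon on the counted strand or in exons of several genes. Pairs in exons of several genes, such as the constant exons, were 2.09% and 1.79% of uniquely mapped pairs. Column 4 was taken as the sense strand because its total over genes was higher in both libraries (4155210 against 540916, and 3425309 against 436277), and column 3 as the opposite strand.

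Names, classes, positions and lengths came from GENCODE version 44, in which 56558 of the 60554 genes were found by identifier without version. CPM is the count per 1000000 counts in genes, computed here, and CPM per kb divides it by the exon sequence outside exons of other genes on the same strand. The alpha genes share 2869 bases of constant exons and the gamma genes 2177. Values are means ± SD over the 2 libraries, intervals are exact (Poisson for levels, binomial for shares) at 95%, and a count of 0 was bounded at 3 counts. Libraries were compared gene by gene with an exact binomial test, two-sided, over genes with a summed count of at least 10, with adjusted p under 0.05 as the threshold. This test and the intervals were tested on simulated data with known answers. No count model was fitted, since there is 1 condition. The genes described and the lists of regulators, partners and markers were chosen with earlier results of these data known. Values per library were given for the 5 highest genes of each cluster by CPM per kb, all C-type genes, all genes without a count or with more opposite than sense counts, genes inside the clusters, and the 3 highest and lowest of each list. Other genes named were chosen after their values were seen. Alternatives were the other count columns, each library alone, other detection limits, uniquely mapped pairs as denominator, other lengths and genes with few counts left out. Promoters came from RefSeq tables. Protein sequences were not used here. The software was Python 3.11.15, scipy 1.17.1, pandas 2.3.3, numpy 2.4.6 and matplotlib 3.10.9.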

Additional observations from a re-analysis of the deposited data

Results flagged for a closer look

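The following genes lie inside the clusters but are not clustered protocadherin genes by the rule, so their values were not described with the family, and each had more counts than a count of 0 allows. They are given as values only. Among pseudogenes of the family, PCDHGB8P had 77 and 67 counts in replicates 1 and 2 (mean 72.0) and PCDHGB9P had 52 and 56 (mean 54.0), which was 6.63 and 6.28 CPM per kb. PCDHB19P had 23 and 27 counts (mean 25), PCDHB18P had 21 and 15 (mean 18.0) and PCDHB17P had 19 and 16 (mean 17.5). Both gamma pseudogenes lie downstream of PCDHGA11, and their levels were in the range of the neighbouring genes PCDHGA11 at 7.56 and PCDHGA12 at 4.89 CPM per kb. On the plus strand, the lncRNA ENSG00000272108, which lies between PCDHB3 and PCDHB4, had 35 and 47 counts (mean 41.0), and ENSG00000272070, which ends upstream of PCDHGA1, had 20 and 27 (mean 23.5). On the minus strand, the lncRNA ENSG00000279726 had 15 and 19 counts (mean 17.0). TAF7, which encodes a subunit of the general transcription factor TFIID and lies on the minus strand between the beta and gamma clusters, had 174 and 163 counts (mean 168.5), or 14.8 CPM per kb. Samples were not checked against each other for outlying values, since the condition has 2 libraries.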

How the results depend on the processing

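No paired analysis was possible because there was a single condition. Of the 77 alternatives to the summary values, 31 moved them by less than the spread between libraries or under 1.5 times for counts, and 46 moved them further. Spearman's rho with position changed sign for alpha on the opposite strand and for beta without genes under a mean count of 10. The cause was not tested. The number of genes that averaged at least 10 counts was 6 on the opposite strand, and 8 reached a mean of 100. Levels from another count column were scaled to the total of that column over genes. Opposite strand levels here are thus per 1000000 opposite strand counts, a much smaller total, and cannot be set beside sense levels. The median CPM of 13.3 became 12.1 unstranded, 0.924 on the opposite strand and 2.39 per 1000000 uniquely mapped pairs. The median CPM per kb for alpha, beta and gamma was 3.40 and 3.32 unstranded for alpha and beta, 0.265 and 0.000 on the opposite strand for beta and gamma, 0.522, 0.624 and 0.770 per 1000000 uniquely mapped pairs, and 1.72, 3.35 and 2.55 per kb of all exons. It was 3.36 and 3.57 per kb of the longest exon for beta and gamma, 3.82 and 4.89 without genes under a mean count of 10 for beta and gamma, and 5.84, 5.25 and 5.49 per kb of coding segment, a length chosen after seeing the data. With either library left out it spanned 3.35 to 3.42 for beta and 4.05 to 4.23 for gamma. The cluster shares of 29.4%, 27.9% and 42.6% became 32.8%, 25.4% and 41.8% unstranded and 86.6%, 11.4% and 1.97% on the opposite strand. Spearman's rho with position for alpha, beta and gamma was 0.564 and 0.329 unstranded for alpha and beta, -0.523, 0.704 and 0.345 on the opposite strand, 0.608, -0.297 and 0.712 without genes under a mean count of 10, 0.695 and 0.226 for alpha and beta by CPM, and 0.695, 0.226 and 0.720 per kb of coding segment. With either library left out it spanned 0.786 to 0.821 for alpha and 0.744 to 0.767 for gamma. Unstranded counts called 1 gene between libraries, against 0 on the sense strand.

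The chief limits are depth and annotation. With few counts per gene, 6 genes under a mean count of 10 have wide intervals, and the ranks of genes with close levels are uncertain. Unspliced RNA of upstream genes and RNA from a gene's own promoter cannot be told apart in the alpha and gamma clusters. Counts of both strands together include the opposite RNA of PCDHA2 and PCDHA3.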

Other observations

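The remaining protein-coding genes inside the clusters were SLC25A2 and ENSG00000279983. SLC25A2 encodes a mitochondrial carrier of ornithine and lies on the minus strand between the beta and gamma clusters. It was low, with 4 and 0 counts in replicates 1 and 2. ENSG00000279983, annotated on the plus strand from PCDHB14 into PCDHB15, had no count. In the annotation used for lengths it has no exon sequence outside exons of other genes on the same strand. Read pairs in such shared exons are in no gene's count, so its lack of counts cannot show if it was low. Of the non-clustered protocadherins under a mean count of 10, PCDH7 had 4 and 3 counts, PCDH10 had 2 and 1 and PCDH19 had 1 and 0. PCDH15 and PCDH1 completed the detected genes, with 96 and 89 counts and with 15 and 10 counts. PCDH12, which had no sense count, had 106 and 72 counts on the opposite strand.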
